A study of Homo sapiens with 18 samples.

Results

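The proneural and neuronal commitment factors described here are NEUROG1, NEUROG2, NEUROD1, NEUROD4, NHLH1, ST18, MYT1 and INSM1. These 8 genes were chosen by name, with earlier results of these data known. NEUROD1 was not analysed here. The other 7 were measured by a probe set annotated to that gene alone, among 19775 genes in all. They were followed through the neural differentiation of H9 cells, an established human embryonic stem (ES) cell line, on 18 Affymetrix arrays that hold 6 groups of 3 RNA pools each. The groups were undifferentiated ES cells, day 6 embryoid bodies, and day 10 and day 17 neuroepithelium, called primitive and definitive in the labels, each of the latter with and without added basic fibroblast growth factor (bFGF), which was given from day 6. No group carries an altered gene, and all derive from the single line H9. The bFGF dose is labelled 20 ug/ml at day 10 and 20 ng/ml at day 17. The labels do not settle whether that difference in unit is meant, so bFGF effects on the 2 days may be effects of different doses. Each ES and day 6 pool mixed 3 passages of the line. Day 6 pools 1 and 2 carry the same passages, 27, 28 and 31, and may share material, and the labels do not say that pools came from separate differentiations. P-values here therefore measure the spread between these pools.

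Proneural factors are basic helix-loop-helix (bHLH) proteins that pair with E proteins, bind a short DNA motif called the E box and turn a dividing neural progenitor into a neuron. Neurogenins act first, and NEUROD and NHLH factors follow in the newborn neuron. The zinc finger proteins INSM1, MYT1 and ST18 accompany that step: INSM1 is a repressor found transiently in progenitors that are about to become neurons and in endocrine cells, and MYT1 and ST18 belong to the MYT family, which represses progenitor genes. Notch signalling, through HES and HEY repressors, holds the step back in neighbouring cells.

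The upstream sequences of 2 of the factors are shown because both genes rose by day 17 and their promoters differ in the motif that proneural proteins bind. Each is the 250 bases before the RefSeq start on GRCh38.p14, 5′ to 3′ on the plus strand, with any E box in capitals. NHLH1 lies on chromosome 1 (chr1:160366821-160367070) and MYT1 on chromosome 20 (chr20:64164202-64164451).
NHLH1: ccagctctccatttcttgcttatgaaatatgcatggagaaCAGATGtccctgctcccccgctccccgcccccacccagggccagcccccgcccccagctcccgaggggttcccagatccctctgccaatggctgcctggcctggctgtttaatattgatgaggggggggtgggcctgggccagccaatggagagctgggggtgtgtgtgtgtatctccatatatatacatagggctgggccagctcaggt
MYT1: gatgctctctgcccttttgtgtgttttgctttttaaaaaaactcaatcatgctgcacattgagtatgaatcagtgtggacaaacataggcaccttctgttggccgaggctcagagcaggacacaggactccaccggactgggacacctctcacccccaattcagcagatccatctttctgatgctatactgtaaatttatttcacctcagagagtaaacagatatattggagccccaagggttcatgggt
The E box, CANNTG, was searched on both strands and is its own reverse complement, and it was present in 61.8% of 35116 upstream windows of that length. The NHLH1 window holds 1, of the form CAGATG, a form that reads CATCTG on the other strand and was in 12.2% of windows, and its first base is at -210 from the start. The MYT1 window holds 0, as do those of NEUROG1 and NEUROG2. NEUROD4 has 2 E boxes, with first bases at -116 and -46, and the latter is of the form CAGCTG, present in 14% of windows. The N box, written CACNAG on one strand and CTNGTG on the other, which HES repressors bind and which was in 32% of windows, was found in 0 of the 5 windows. Both named forms are kinds of E box, so their sites are also counted as E boxes. A match is a match of letters in this window and no more, and the arrays measured no binding.

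Signals are linear, scaled by the submitters so that each array's mean without its upper and lower 2% lies between 150.016 and 150.026. The 4 neuroepithelial arrays of pool 2 stood apart in their dim probe sets: their median signal was 48.7 to 50.8, against 25.2 to 32.7 on the other 14. The ratio of 3′ to 5′ beta-actin signal, a sign of RNA quality, was 2.27 to 2.64 on the 6 arrays of pool 2 and 1.17 to 1.75 on the 12 arrays of pools 1 and 3. The same ratio for GAPDH was not raised on pool 2, at 0.876 to 1.01 there and 0.984 to 1.24 on pools 1 and 3. Untreated day 17 neuroepithelium was compared with ES cells for marker genes, where 11.7% of all genes were called higher. In either direction, 3989 of 19775 genes were called there. Of measured pluripotency markers 9 of 9 were called lower, and of neural progenitor markers 10 of 12 were called higher. Markers of other cells were called too. Of 8 neural crest markers 5 were higher (TFAP2A, TFAP2B, PAX3, SNAI2 and SOX9) and 2 lower (FOXD3 and ERBB3). Of 7 oligodendrocyte lineage markers 3 were higher and 1 lower. Many signals of the factors are low. The number of arrays on which a factor's signal was below the median probe set of its own array was 18 of 18 for NEUROG2, 13 for NEUROG1, 12 for ST18, 11 for NEUROD4 and for NHLH1, 8 for MYT1 and 6 for INSM1. Changes are given as log2 of (signal + 16) with the standard error (SE), which understates the change of such dim genes. A factor was called where the limma fit over all genes and groups gave a Benjamini-Hochberg adjusted p under 0.05. A smaller number of neuronal cells in a pool and less of a transcript per cell cannot be told apart in these data.

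**Figure D1:**
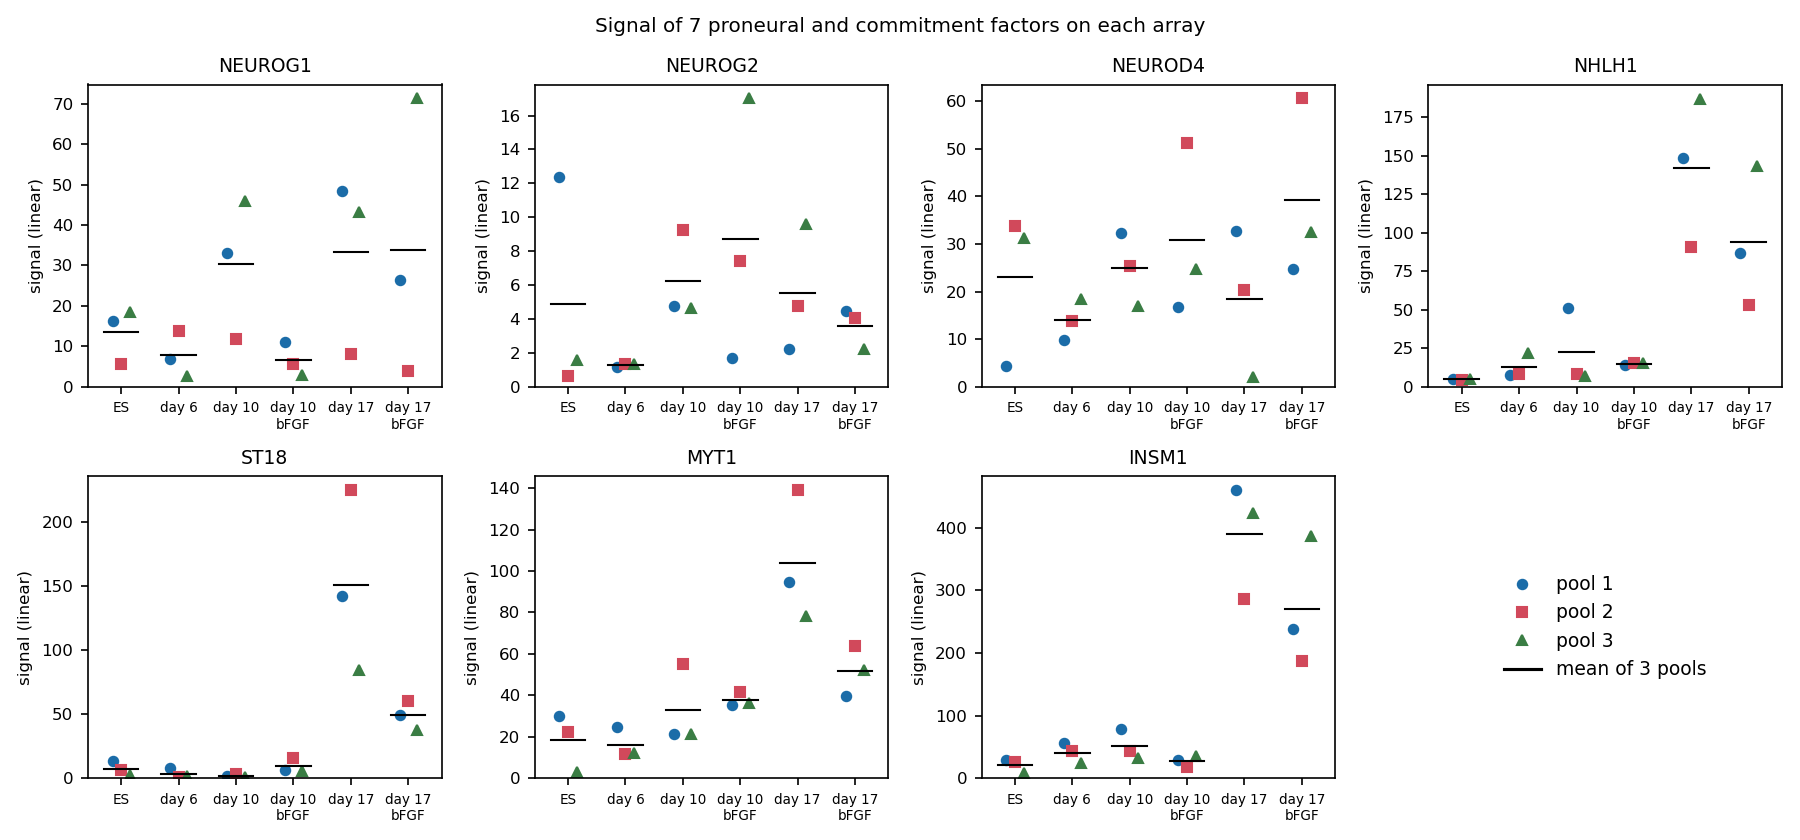
Linear signal (vertical axis, a separate scale per panel) of the 7 measured factors in the 6 groups (horizontal axis). Points are the 3 RNA pools and bars their mean. ST18, INSM1, MYT1 and NHLH1 reach their highest means at day 17 without bFGF (151, 390.2, 104 and 142), NEUROG2 stays at or below 17 on every array, and NEUROG1 and NEUROD4 overlap between days 10 and 17.

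Between day 10 and day 17 without bFGF, ST18, INSM1, NHLH1 and MYT1 rose, and the other 3 measured factors, NEUROG1, NEUROG2 and NEUROD4, did not pass the test. The count of 4 of 7 called higher stands beside 1.45% of all 19775 genes called higher in this comparison. The median change of the 7 factors was 1.34, against -0.01 over all genes. Because the factors were chosen with earlier results of these data known, neither contrast is independent evidence of a rise of the set. In each of the 4 the lowest day 17 pool was above the highest day 10 pool, which held for 7.29% of all genes. The comparison asks which factors accompany the passage from primitive to definitive neuroepithelium.

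The neurogenins, the factors placed earliest in the cascade, had low signals throughout. NEUROG1 read 16.3, 5.67 and 18.5 in ES pools 1 to 3, and 6.89, 13.7 and 2.68 at day 6. It read 33.2, 11.9 and 45.9 at day 10 and 48.4, 8.06 and 43.2 at day 17 without bFGF. With bFGF it read 11.2, 5.56 and 2.93 at day 10 and 26.4, 3.85 and 71.3 at day 17. Pool 2 was the lowest of its group in both untreated neuroepithelial groups and at day 17 with bFGF, and day 10 and day 17 overlapped. From day 6 to day 10 NEUROG1 had a change of 0.91 ± 0.47 (SE, 3 pools each), with an adjusted p of 0.327, and from day 10 to day 17 one of 0.04 ± 0.47, with an adjusted p of 0.997. The first of these values passed the test without the 4 pool 2 arrays with raised dim signals (1.24 ± 0.33, adjusted p = 0.0434), with a term for those arrays (1.25, adjusted p = 0.0279) and without pool 2 of all groups (1.42, adjusted p = 0.0387). The change from ES cells to untreated day 17, 0.64 ± 0.47 with an adjusted p of 0.417, likewise passed without those 4 arrays (1.09, adjusted p = 0.0329) and with the term (0.98, adjusted p = 0.0442). The only probe set of NEUROG1 is one that the array's maker marks as able to bind related transcripts, so its signal may not be that of NEUROG1 alone.

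NEUROG2, a neurogenin prominent in cortical and sensory neurogenesis, lay between 0.665 and 17 over the 18 arrays, with a median of 4.27. Its group means therefore have no order that these arrays can resolve, and its change from day 10 to day 17 was -0.05 ± 0.24 (adjusted p = 0.992). NEUROD4, which promotes neuronal over glial fate, lay between 1.99 and 60.6, with a median of 24.8. Its untreated day 17 pools spread from 1.99 to 32.7, which covers all 3 untreated day 10 pools (32.4, 25.4 and 17), and the change was -0.35 ± 0.40 (adjusted p = 0.920).

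NHLH1, a bHLH factor of newly formed neurons, read 5.0, 4.72 and 5.30 in ES pools 1 to 3, and 7.85, 8.29 and 22.0 at day 6. It read 51.4, 8.5 and 7.10 at day 10 and 148, 90.7 and 187 at day 17 without bFGF. With bFGF it read 14.1, 15.2 and 15.2 at day 10 and 86.9, 52.9 and 143 at day 17. All 6 day 17 pools were above all 12 earlier ones, and a single day 10 pool, pool 1 without bFGF, came within 2 units of the lowest of them. Its mean rose from 22.3 ± 25.2 to 142 ± 48.4 (SD, n = 3) between day 10 and day 17 without bFGF, a log2 change of 2.18 ± 0.38 (SE) with a limma adjusted p of 0.00504. Fitted on the compared groups alone, the same change had an adjusted p of 0.174. In the order of group means, ES, day 6, day 10 with bFGF, day 10, day 17 with bFGF and day 17, the only neighbouring step that passed was from day 10 without to day 17 with bFGF (1.63 ± 0.38, adjusted p = 0.0355).

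ST18, of the zinc finger factors, read 13.5, 6.68 and 2.53 in ES pools 1 to 3, and 8.37, 0.747 and 1.53 at day 6. It read 1.52, 3.01 and 0.754 at day 10 and 142, 225 and 84.6 at day 17 without bFGF. With bFGF it read 6.23, 16 and 5.72 at day 10 and 49.2, 60.3 and 37.7 at day 17. ST18 was thus near the floor of the array on all 12 arrays up to day 10, intermediate on the 3 bFGF-treated day 17 arrays and highest on the 3 untreated day 17 arrays, with no overlap between these 3 sets. From day 10 to day 17 without bFGF it rose by 3.14 ± 0.29 (adjusted p = 1.80e-05), which ranked 9 by p of all genes. The neighbouring step from day 10 with bFGF to day 17 with bFGF passed (1.37 ± 0.29, adjusted p = 0.0268).

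INSM1 read 29.3, 25.3 and 9.02 in ES pools 1 to 3, and 55.8, 43.4 and 24.3 at day 6. It read 78.0, 43.2 and 31.9 at day 10 and 460.2, 286 and 424 at day 17 without bFGF. With bFGF it read 28.5, 17.6 and 35.1 at day 10 and 238, 188 and 386 at day 17. The 6 day 17 arrays lay above the other 12. It rose from 51.0 ± 24 at day 10 to 390.2 ± 91.6 at day 17 without bFGF (SD, n = 3), a change of 2.63 ± 0.33 (SE, adjusted p = 0.000360) that kept its call under every alternative tried, with a highest adjusted p of 0.0393. In the order ES, day 10 with bFGF, day 6, day 10, day 17 with bFGF and day 17, the step from day 10 to day 17 with bFGF was the only one of neighbours to pass (2.10 ± 0.33, adjusted p = 0.00243).

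MYT1 read 30.0, 22.1 and 2.90 in ES pools 1 to 3, and 24.6, 11.8 and 12.4 at day 6. It read 21.4, 55.3 and 21.6 at day 10 and 94.5, 139 and 78.1 at day 17 without bFGF. With bFGF it read 35.3, 41.6 and 36.1 at day 10 and 39.6, 63.7 and 52.4 at day 17. Its day 17 pools without bFGF lay above every other array, and its bFGF-treated day 17 pools overlapped with day 10. MYT1 rose by 1.34 ± 0.33 from day 10 to day 17 without bFGF (adjusted p = 0.0452), close to the threshold: the call was lost in 15 of 18 fits that each left out 1 array (adjusted p 0.0179 to 0.206 over the 18, with changes of 1.13 to 1.65) and in 7 of 13 other alternatives. No step between neighbouring groups in its order (day 6, ES, day 10, day 10 with bFGF, day 17 with bFGF, day 17) passed the test.

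Against ES cells, the same 4 factors were higher at day 17 without bFGF, where 11.7% of all genes were called higher. The changes were 3.47 ± 0.33 for INSM1 (adjusted p = 1.17e-06), 2.86 ± 0.38 for NHLH1 (adjusted p = 3.46e-05), 2.76 ± 0.29 for ST18 (adjusted p = 2.89e-06) and 1.87 ± 0.33 for MYT1 (adjusted p = 0.000503). This comparison shares its day 17 arrays with the one from day 10. Each of the 4 kept its call under every alternative in which it was tested, all with its kept probe set or the mean of its probe sets. The highest adjusted p was 0.0383 for ST18, whose change was 0.66 with its probe sets averaged, and 0.0103 for MYT1. Taken singly, ST18's other probe sets did not pass against ES cells (changes of -0.39, 0.01 and 0.27). MYT1's other tested probe set did not pass either (0.20 ± 0.37, limma adjusted p = 0.795), while INSM1's did (1.69 ± 0.37, adjusted p = 0.00347). NEUROG2 had a change of 0.07 and NEUROD4 one of -0.20, and neither passed.

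The earlier steps moved none of the factors past the test. Between ES cells and day 6 embryoid bodies, 0 of 7 were called by limma, where 3.85% of all genes were. At an unadjusted p under 0.05 there were 0 of 7, against 2577 of all genes. INSM1 had the largest change, 0.63 ± 0.33 (adjusted p = 0.483), and its pools overlapped. Between day 6 and day 10, 0 of 7 were called, where 6.37% of all genes were. Again 0 of 7 had an unadjusted p under 0.05, against 3606 of all genes. With shares this low, 0 of 7 says little about the factors as a set. After NEUROG1, MYT1 had the largest change in that step, 0.55 ± 0.33 (adjusted p = 0.412). The 4 factors that rose were thus called between days 10 and 17 and in neither earlier step. Whether their change in the later step exceeded that in the earlier ones was not tested.

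**Figure D2:**
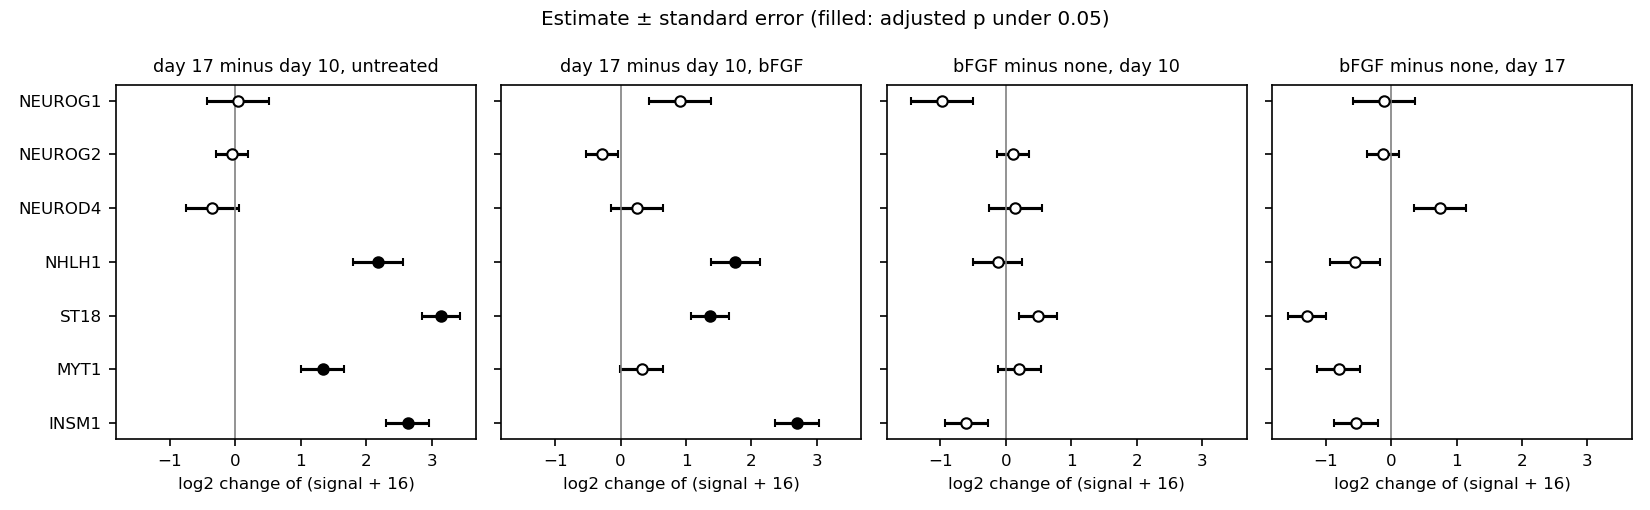
Log2 change of (signal + 16) with its SE (horizontal axis) of the 7 measured factors (vertical axis) in 4 comparisons, with filled points where the limma adjusted p was under 0.05. From day 10 to day 17, 4 factors are filled without bFGF and 3 with it, and none is filled for bFGF against none, where ST18 at day 17 lies lowest at -1.28.

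Under bFGF, INSM1, NHLH1 and ST18 also rose between days 10 and 17, 3 of 7 factors beside 0.662% of all genes called higher. INSM1 rose by 2.70 ± 0.33 (adjusted p = 0.000642), NHLH1 by 1.75 ± 0.38 (adjusted p = 0.0316) and ST18 by 1.37 ± 0.29 (adjusted p = 0.0268). MYT1 had a change of 0.32 ± 0.33 (adjusted p = 1.00) and NEUROG1 one of 0.91 ± 0.47 (adjusted p = 0.784). The NHLH1 and ST18 calls were each lost in 5 of 18 fits that left out 1 array, NHLH1 without bFGF-treated day 10 pools 1, 2 or 3 or bFGF-treated day 17 pools 1 or 3 (highest adjusted p = 0.186), and ST18 without bFGF-treated day 10 pools 1 or 3 or any bFGF-treated day 17 pool (highest adjusted p = 0.137). They were also lost in 4 and 7 of 12 other alternatives.

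At day 17, ST18 was lower with bFGF in every same-numbered pool: 142, 225 and 84.6 without it stand against 49.2, 60.3 and 37.7 with it, and the groups do not overlap, as for 5.07% of all genes in that direction. The change of -1.28 ± 0.29 had an adjusted p of 0.0968, so that 0 of 7 factors were called, beside 0.339% of all genes. At an unadjusted p under 0.05 there were 2 of 7, ST18 and MYT1, and 980 of all genes. With the pool number as a block, which the pairing of pools allows in this comparison, ST18 passed (adjusted p = 0.0209, where 0.314% of all genes were called lower), and with the number as a random block it had an adjusted p of 0.0153. It also passed with a pseudocount of 64 (-0.88, adjusted p = 0.0324), with a term for the 4 pool 2 arrays (adjusted p = 0.0145) and without untreated day 17 pool 3 (-1.60, adjusted p = 0.0338). These were 4 of 12 alternatives and 1 of 18 fits that left out 1 array, and in the others it did not pass. The adjusted p was 0.751 with the compared groups alone, 0.341 without the 4 pool 2 arrays and 0.421 without untreated day 17 pool 2 (-0.97). Averaged over its 4 probe sets, ST18 had a bFGF change of -0.14 (adjusted p = 1.00).

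The other factors of day 17 did not pass for bFGF in any of these fits. MYT1 had -0.80 ± 0.33 (adjusted p = 0.864, 0.360 with the block) and no overlap between groups. NHLH1 had -0.55 ± 0.38 and INSM1 -0.54 ± 0.33, both with overlapping groups, although each was lower with bFGF in 3 of 3 same-numbered pools. NEUROD4 had 0.75 ± 0.40, and the median of the 7 was -0.54, against -0.01 over all genes.

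At day 10, bFGF changed 0 of 7 factors past the test, beside 0.086% of all genes, and 0 of 7 had an unadjusted p under 0.05, against 613 of all genes. NEUROG1 had the largest value, -0.98 ± 0.47, with 33.2, 11.9 and 45.9 without bFGF and 11.2, 5.56 and 2.93 with it, and its groups did not overlap, as for 2.97% of all genes in that direction. INSM1 had -0.60 ± 0.33 and ST18 0.49 ± 0.29, all with adjusted p of 1.00. ST18 was higher with bFGF in 3 of 3 pools at day 10 and lower in 3 of 3 at day 17. At day 10 ST18 was near the floor of the array, at 0.754 to 3.01 without bFGF and 5.72 to 16 with it. The difference of its 2 bFGF effects was -1.77 ± 0.41, with an unadjusted p of 0.000506 and an adjusted p of 0.666 (0.178 with the block). In that test limma called 0 of 19775 genes (0%), and 631 had an unadjusted p under 0.05. The same difference was 0.84 ± 0.34, -0.15 ± 0.47 and 0.39 ± 0.46 for ST18's other probe sets, and none of them passed.

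The other probe sets did not all repeat these changes. ST18 has 3 further probe sets, and all 3 were below the array median on 18 of 18 arrays, between 0.412 and 31.9. The first of them read 1.69, 2.32 and 2.69 in untreated day 17 pools 1 to 3, where the kept one read 84.6 to 225, and its change from day 10 to day 17 was -0.59 ± 0.24 (adjusted p = 0.440). With bFGF at day 17 it read 18.4, 7.70 and 18.9, higher in 3 of 3 pools where the kept probe set was lower, with a change of 0.74 ± 0.24 (adjusted p = 0.604). Averaged over its 4 probe sets, ST18 had a change of 0.68, with an adjusted p of 0.174, so its rise rests on 1 probe set. INSM1's other probe set was dimmer, with 63.1, 112 and 20.8 at day 17 without bFGF, with a change of 1.47 ± 0.37 from day 10 (adjusted p = 0.0682) and of 1.69 ± 0.37 from ES cells (adjusted p = 0.00347). Under bFGF, that INSM1 probe set changed by 0.45 ± 0.37 from day 10 to day 17 and did not pass, where the kept one did. MYT1 has 3 probe sets. Its unkept probe set not ending in _x_at had a change of 0.61 ± 0.37 from day 10 to day 17 (adjusted p = 0.743). Its probe set ending in _x_at read 37.7, 23.6 and 19.3 in untreated day 10 pools 1 to 3. At untreated day 17 that probe set read 37.8, 61.3 and 50.9, so the groups did not overlap, by a narrow margin. Its change was not tested. Probe sets of a gene can target different transcript ends or isoforms, and the annotation used here does not say which.

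**Figure D3:**
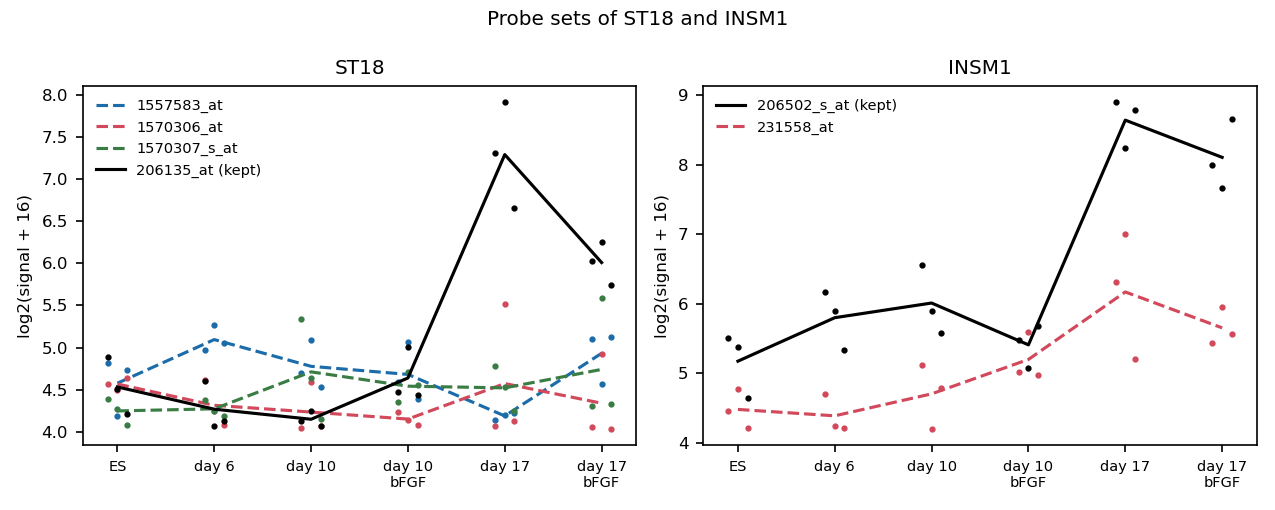
Log2 of (signal + 16) (vertical axis) of every probe set of ST18 and INSM1 in the 6 groups (horizontal axis), with lines for group means and points for the 3 pools. The kept ST18 probe set rises at day 17 while the other 3 stay low, and both INSM1 probe sets have their highest mean at untreated day 17.

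The 4 factors that rose were picked by a rise on these same 18 arrays, so correlations between them follow in part from that choice. As a description, with no test and with the 3 day 17 pools of each treatment shared by every pair, Pearson's r of log2 of (signal + 16) was 0.94 for INSM1 with NHLH1, 0.86 for MYT1 with ST18, 0.85 for INSM1 with ST18 and 0.69 for NHLH1 with MYT1. NEUROG1 had 0.56 with NHLH1 and 0.54 with INSM1. By the same measure, among 5169 genes whose group means range over at least 1 log2 unit, the 3 most like NHLH1 were STMN2 (r = 0.951), INSM1 (0.944) and TERF2IP (0.939). Those most like INSM1 were STMN2 (0.955), ABAT (0.954) and NHLH1 (0.944). Those most like ST18 were SNCAIP (0.957), SCN3A (0.955) and NSG2 (0.953), and those most like MYT1 were SLCO5A1 (0.921), SLC44A5 (0.912) and AHR (0.902).

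STMN2, a microtubule regulator of growing axons that stood first for both NHLH1 and INSM1, read 385, 169.6 and 92.6 at day 10, and 2368, 2360 and 1947 at day 17 without bFGF. With bFGF at day 17 it read 1445, 1044 and 1314. SNCAIP, first for ST18, read 429, 488 and 344 at day 17 without bFGF and 188, 211 and 158 with it. Both genes, like ST18, had separate day 17 groups with the untreated pools above, as did 5.07% of all genes. SCN3A and NSG2 did so too, while TERF2IP, ABAT, SLCO5A1, SLC44A5 and AHR overlapped between the day 17 groups. All were picked by likeness on these same arrays, so a shared pattern is no further evidence. The names depend on the scale: with a pseudocount of 1, 1 of the 3 genes recurred for MYT1 and 2 of 3 for each of the other factors.

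The rest of the pathway moved in part, as counted over lists of genes that do not include the 8 factors. Of 12 measured other proneural bHLH factors, 2 were called higher from day 10 to day 17 without bFGF and 0 lower, with a median change of 0.25. These were OLIG1, a bHLH factor of ventral progenitors and oligodendrocytes (1.77 ± 0.33, adjusted p = 0.00884, means 15.2 and 83.4), and NHLH2, the close relative of NHLH1 (1.67 ± 0.30, adjusted p = 0.00744, means 34.1 and 143). The E proteins that pair with them, TCF3, TCF4 and TCF12, were called in 0 of 3. OLIG1 is also an oligodendrocyte lineage marker, and the 7 measured markers of that lineage summed to 254 to 376 on the untreated day 10 arrays and 436 to 563 on those of day 17. The part of such cells in the factors' changes was not tested.

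Of 11 measured inhibitors of proneural factors, 2 were called higher in the same comparison and 0 lower, with a median of -0.19. They were HEY1, a Notch-responsive repressor (1.70 ± 0.24, adjusted p = 0.00102, means 281 and 958), and ID4, which sequesters E proteins (1.38 ± 0.23, adjusted p = 0.00413). Of 12 Notch ligands and modulators, 0 were called from day 10 to day 17 without bFGF. HES6, which counters HES1, had 1.40 (adjusted p = 0.117), and DLL3, a Notch ligand homologue of newborn neurons, 0.98 (adjusted p = 0.123). Against ES cells, 8 of these 12 were called higher at untreated day 17 and 0 lower, beside 11.7% of all genes called higher. From day 6 to day 10, DLL1, LFNG and NOTCH1 were called higher and 0 lower. Of the inhibitors, HES1, HES4 and HES5 were called higher in that step, and HEY2 and ID1 lower.

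Of 8 measured other zinc finger factors, 3 were called higher and 0 lower, with a median of 0.34. INSM2, the relative of INSM1, changed by 2.53 ± 0.31 (adjusted p = 0.000251, means 7.16 and 119.6), BCL11A by 1.72 (adjusted p = 0.00999) and MYT1L, the third member of the MYT family, by 1.37 ± 0.25 (adjusted p = 0.00744, means 4.90 and 39.1). BCL11A had been called lower in both earlier steps, with means of 597 in ES cells, 187 at day 6 and 20.5 at day 10. Its untreated day 17 mean of 97.6 was called lower than that of ES cells (-2.45, adjusted p = 4.11e-05), while INSM2 and MYT1L were called higher. Among 22 downstream neuronal factors, 2 were called higher and 0 lower: EOMES, a T-box factor of intermediate progenitors (1.63, adjusted p = 0.0210), and TBR1, of early cortical neurons (1.33, adjusted p = 0.0254). Of 23 early neuronal products, 11 were called higher and 0 lower, with a median of 1.24, led by STMN2 (3.47 ± 0.35, adjusted p = 3.75e-05). Between bFGF and none at day 17, limma called 0 genes of these 7 lists, and the list medians lay between -0.29 and 0.41, beside -0.01 over all genes.

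**Figure D4:**
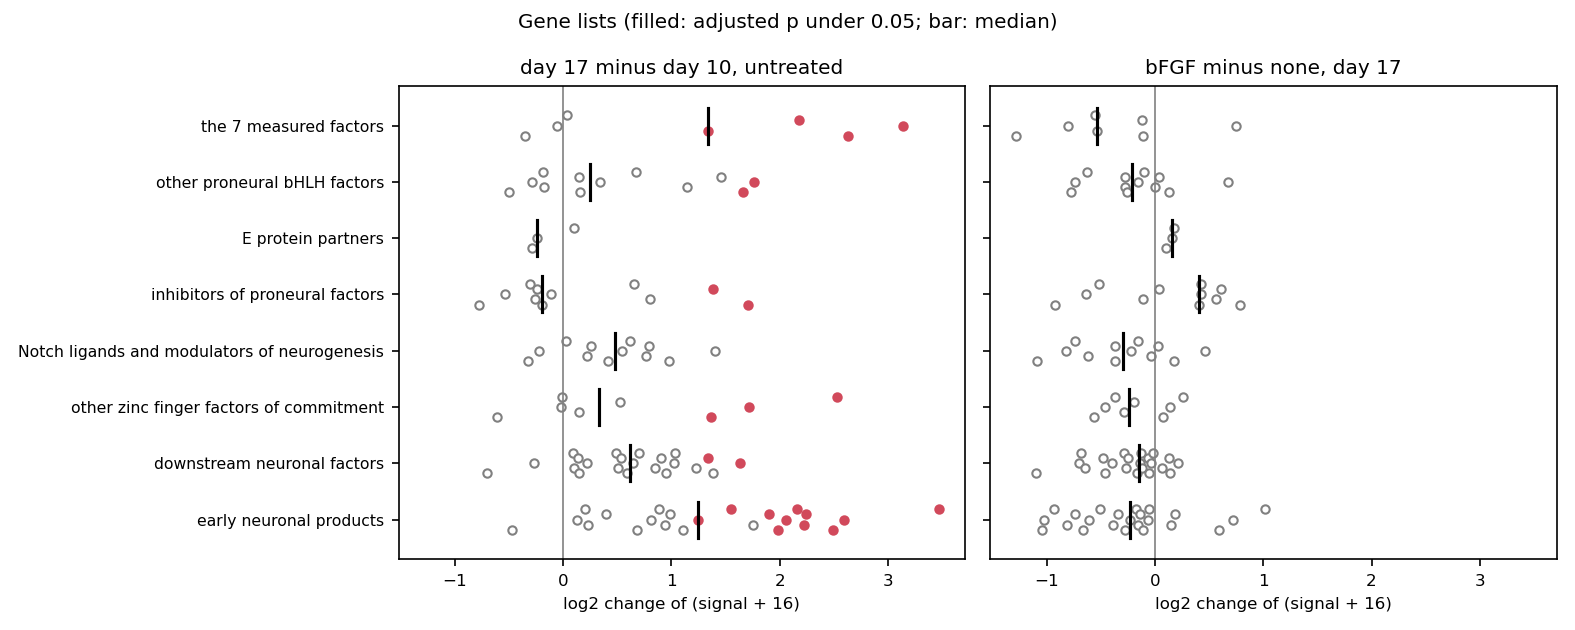
Log2 change of (signal + 16) (horizontal axis) of each measured gene of the 7 factors and of 7 pathway lists (vertical axis), for day 17 against day 10 without bFGF and for bFGF against none at day 17. Filled points passed the limma test and bars are list medians. In the first panel 11 of 23 early neuronal products and 4 of 7 factors are filled, and in the second panel none is.

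The early neuronal products of the list above also give the summed signal of neuronal markers. Over the 23 measured genes it was 8856 to 13481 on the untreated day 10 arrays, 20924 to 24153 on the untreated day 17 arrays and 16536 to 21376 on the bFGF-treated day 17 arrays, so the last 2 ranges overlap. A large share of the sum comes from TUBB3 and DPYSL3, which had mean signals of 4436 and 3008 in ES cells already and did not pass from day 10 to day 17 without bFGF (0.69, adjusted p = 0.670, and 0.13, adjusted p = 0.968). Marker lists of earlier stages differed too in that comparison, where 393 of 19775 genes were called in either direction. Called lower were 4 of 9 pluripotency markers (ZFP42, LIN28A, DPPA4 and DNMT3B), with the mean signal of LIN28A at 8210 and 3317. Called higher were 2 of 12 neural progenitor markers, SOX1 and SOX3. The sums were 12218 to 14594 and 5004 to 7268 for the pluripotency list, and 31277 to 50895 and 39029 to 55172 for the progenitor list, at days 10 and 17. The part of any of these in each factor's change was not tested. INSM1, MYT1 and ST18 are also expressed in pancreatic endocrine cells, and 12 measured markers of that cell type summed to 657 to 1104 at untreated day 10, 870.0 to 1272 at untreated day 17 and 323 to 531 at bFGF-treated day 17. Of these markers 0 were called between days 10 and 17 without bFGF, beside 1.45% of all genes called higher. Against ES cells, SST and ISL1 were called higher at day 6 and at untreated day 17, and CHGA was called lower at day 6. From day 6 to day 10 SST was called higher again. The hormone genes INS and GCG stayed at or below 16.5 and 15 on every array, while SST, a hormone of interneurons as well as of endocrine cells, had mean signals of 489 without and 73.3 with bFGF at day 17 and fell by 2.31 (adjusted p = 0.0399). Placode and sensory neuron markers and photoreceptor and retinal markers stand for cell types that use NEUROG1 and NEUROD4. Between days 10 and 17 without bFGF, where neither factor passed, 0 of 11 and 0 of 10 were called. Against ES cells, 3 of the 11 were called higher at untreated day 17 (EYA2, ISL1 and NTRK2), beside 11.7% of all genes, and 0 of the 10. At day 6, 3 of the 11 were higher than in ES cells (EYA1, ISL1 and NTRK2). ARR3, of the retinal list, was called higher from day 6 to day 10. The part of these cell types in any factor's change was not tested.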

How the data were processed

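Affymetrix HG-U133 Plus 2.0 arrays measured total RNA of 18 pools in 6 groups. The values deposited by the authors are linear signal intensities per probe set. From the values themselves, each array was scaled to the same trimmed mean, and the software is not given in the sources used here. Of 54675 probe sets, 41097 name 1 gene in the platform annotation, 1801 name several and 11777 are unnamed here, which gave 19775 genes. For each gene, probe sets ending in _x_at were dropped where another existed and the one with the highest mean log2(signal + 16) was kept. limma 3.58.1 in R 4.3.3 (lmFit, eBayes) fitted 1 mean per group over all 18 arrays, and p-values were adjusted over all genes by Benjamini-Hochberg, with a threshold of 0.05. The number of arrays limits the precision. The script was tested on simulated data. The members and lists were chosen with earlier results of these data known, so they are no independent evidence of a direction. The text names the 8 factors, up to 3 genes of each list with the largest change, and the 3 genes most like each called factor.

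Pool numbers come from the labels. ES pool 1 took the number left over, and 1 array, bFGF-treated day 10 pool 2, has number 2 in the title but number 1 in the description. Deviations from the group means of same-numbered arrays correlated at 0.0749 to 0.693 (45 pairs), and those of other arrays at -0.577 to 0.265 (90 pairs). Every pair was above 0.1 in all comparisons but day 10 against day 6, so numbers were taken as pairing the pools in the other 7, and the block is an alternative fit. The passages do not bear out number 2 between ES cells (24, 25 and 26) and day 6 (27, 28 and 31), so there the pairing rests on the correlation alone. The results were recomputed with a pseudocount of 1 or 64, after quantile scaling, with a filter to the upper 60% of genes, another variance prior, the compared groups alone, other probe set rules, pool 2 left out or fitted as a term, and each array left out in turn. Promoters are from RefSeq on GRCh38.p14, where 5 of the 7 factors had one.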

Additional observations from a re-analysis of the deposited data

How the results depend on the processing

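The factors' changes kept their side of the threshold in 1640 of 1696 refits, where 46 lost and 10 gained the call and 0 reversed while called. Within those 1640, 51 had the other sign while called in neither fit. Of 248 counts of factors called, 228 stayed within 1.5 times the first. From day 10 to day 17 without bFGF, 4 factors were called, 2 with the compared groups alone, 2 with probe sets averaged per gene and 2 in the upper 60% of genes, where only INSM1 and MYT1 were tested. That filter also left 2 against ES cells and 1 from day 10 to day 17 under bFGF. That last count, first 3, was 1 with a pseudocount of 1, 0 with the compared groups alone and 1 without pool 2 of all groups. For bFGF at day 17, first 0, it was 1 (ST18) with a pseudocount of 64, with the fixed and the random replicate block and with the term for the 4 arrays. For day 10 against day 6 it was 1 (NEUROG1) without those arrays, with the term and without pool 2 of all groups.

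Leaving out 1 array gave 3 to 4 factors from day 10 to day 17 without bFGF, 4 to 4 against ES cells, 0 to 1 for bFGF at day 17 and 1 to 3 from day 10 to day 17 under bFGF, and 0 to 0 in the others. The replicate block changed no other call of a factor. Over all genes, the range of calls under all alternatives was 462 to 1454 for day 6 against ES cells (first 762), 647 to 2512 for day 10 against day 6 (1259), 34 to 754 for day 17 against day 10 (393), 3020 to 5812 for day 17 against ES cells (3989), 0 to 38 and 0 to 122 for bFGF at days 10 and 17 (17 and 67), 6 to 447 for day 17 against day 10 under bFGF (208) and 0 to 1 for the difference of the bFGF effects (0). Each of the upper ends was reached with a fixed or random replicate block. Quantile scaling moved the median change of all genes by -0.12 in day 17 against ES cells. Signals near the floor of the array, as in NEUROG2 on all 18 arrays, limit what can be read of the dim factors.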
